A study of Mus musculus with 25 samples.

Results

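This account covers the junctions that mouse embryonic stem cells of the genotype the labels call BRCA1flox/exon11 formed with Tus, comparing a small interfering RNA (siRNA) against BRCA1 (siBRCA1) with the control siRNA against luciferase (siLuciferase). Its members were all junctions listed in the tables of those groups, 904 with siBRCA1 and 1181 with siLuciferase, which made 2085 of the 11867 junctions of the series. Both groups had the 4-kb cassette with the Ter array at ROSA26, received Tus and siRNA by transfection, were cut by Cas9 at a bait site 30 kb from the cassette and were harvested 48 h after delivery. Groups of BRCA1del/exon11 cells with the same cassette, bait and time were used for comparison: siBRCA1 and siLuciferase with Tus, and siFANCM with the effector that the labels call EV in place of Tus. The BRCA1flox groups and the EV group had 2 samples each and the BRCA1del groups with Tus 3 each, and the labels do not say whether these were separate cultures. The tests over junctions below cover counting error within libraries and not the spread between cultures, and any spread between libraries may be technical. The tables list DNA joins and no transcripts, so the loss of BRCA1 and the identity of the cells were not checked here.

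Tus is a bacterial protein that binds short DNA sites called Ter and, when bound, stops replication forks that arrive from one side. A row of Ter sites in a mammalian chromosome thereby gives a fork barrier at a known place. BRCA1 works in homologous recombination and in the protection and repair of stalled forks, and the series title concerns tandem duplications formed through microhomology at such forks and their suppression by BRCA1. Microhomology is a run of a few bases that both joined ends share, so that those bases can be assigned to either end; joins with no shared and no added base are blunt.

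The assay, LAM-HTGTS, a translocation sequencing method that starts with linear amplification, amplifies outward from the Cas9-cut bait end and reads the DNA joined to it, called the prey. Each join has a prey position in the cassette and an orientation. Leftward joins ran from the junction toward position 1 of the cassette and rightward joins toward its other end at position 3928. In cassette coordinates, which are not those of a genome build, the first 3 of 6 Ter elements covered 3048 to 3070, 3076 to 3098 and 3104 to 3126, and the last 3 covered 3166 to 3188, 3194 to 3216 and 3222 to 3244. They sit in a pair of identical repeats of 116 bp at 3024 to 3139 and 3142 to 3257, followed by a site for the endonuclease I-SceI at 3260 to 3277. The array here means 3024 to 3277. EGFP sequence, which starts at 2636, flanks the array, and a polyA region runs from the last XbaI site at 3618 to the end. Positions before that site are called the cassette body.

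Read names carried a sequencing run, and both groups had reads of the same runs, called C and D. With siBRCA1 there were 679 junctions in run C and 225 in run D, and with siLuciferase 933 and 248. Each run of a group was taken as 1 library, although nothing ties a run to a labelled replicate. Both libraries of each group carried the same inline barcode; 4.44% of the smaller siBRCA1 library and 2.02% of the smaller siLuciferase library shared position, strand, far end and bait end with a junction of the other run. Between the C and D libraries of different groups of the series, which had different barcodes, that share averaged 4.18% and ran from 1.21% to 7.93%, a range that holds both values. Run C reads had more mismatches in the bait, 0.315% and 0.351% of bases against 0.113% and 0.208% in run D (siBRCA1 first). Shares were compared within runs by an exact test of a common odds ratio, which covers counting error, and p-values were adjusted over the 10 shares compared. An exact permutation test over the libraries, 2 against 2, cannot give a p below 0.333.

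The bait end, read from the primer side, shows which bases were on offer for microhomology, and joins to the array used several stretches of it. Its last base is where the bait sequence rebuilt from the reads stopped. That place was taken as the cut, and bait losses are counted from it. The first sequence below gives its last 40 bases, with the bases used by the shared stretches nearest to the cut in capitals. The others are 20 bases of bait, the microhomology in capitals and 8 bases of prey, as the most frequent read stretch for that microhomology.
Bait end: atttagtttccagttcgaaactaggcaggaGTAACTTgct
ACTT, leftward at 3070: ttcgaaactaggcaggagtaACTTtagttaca
TTTAGTT, leftward at 3096: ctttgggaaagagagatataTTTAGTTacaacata
TCGA, leftward at 3046: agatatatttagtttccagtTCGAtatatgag
GTAACT, rightward at 3060: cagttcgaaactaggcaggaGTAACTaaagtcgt
In the first of these joins the bait lost 3 bases and in the last 4, so both kept nearly the whole bait end, and they used overlapping bait bases to join the Ter element in opposite orientations.

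With siBRCA1, rightward joins made up a larger share of the joins in the Ter array than with siLuciferase. In siBRCA1 cells 26 of 314 array joins were rightward in run C (8.28%, Wilson 95% interval 5.71 to 11.9) and 15 of 128 in run D (11.7%, 7.23 to 18.4). In siLuciferase cells 9 of 491 were rightward in run C (1.83%, 0.967 to 3.45) and 2 of 156 in run D (1.28%, 0.352 to 4.55). Both siBRCA1 libraries lay above both siLuciferase libraries. The mean was 10% ± 2.43 against 1.56% ± 0.39 (SD, n = 2 runs), a common odds ratio of 5.82 (exact 95% interval 2.90 to 12.7, adjusted p = 8.9e-08), and the exact permutation p was 0.333. Reads covered by these intervals are amplified molecules and may not be independent.

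In the cassette to the left of the array, the rightward share did not differ between the siRNAs by the test. Left of the array, 30 of 96 joins were rightward with siBRCA1 in run C (31.2%) and 9 of 32 in run D (28.1%), against 70 of 223 (31.4%) and 14 of 56 (25%) with siLuciferase. These shares overlapped, and the common odds ratio was 1.03 (exact 95% interval 0.633 to 1.66, adjusted p = 0.91). Over the whole cassette body the rightward share was 13.6% and 14.9% with siBRCA1 and 10.9% and 7.87% with siLuciferase (runs C and D), and that difference of 4.85 percentage points did not pass (adjusted p = 0.064, exact test over runs). Whether the odds ratio differed between the array and its left side was not tested.

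**Figure D1:**
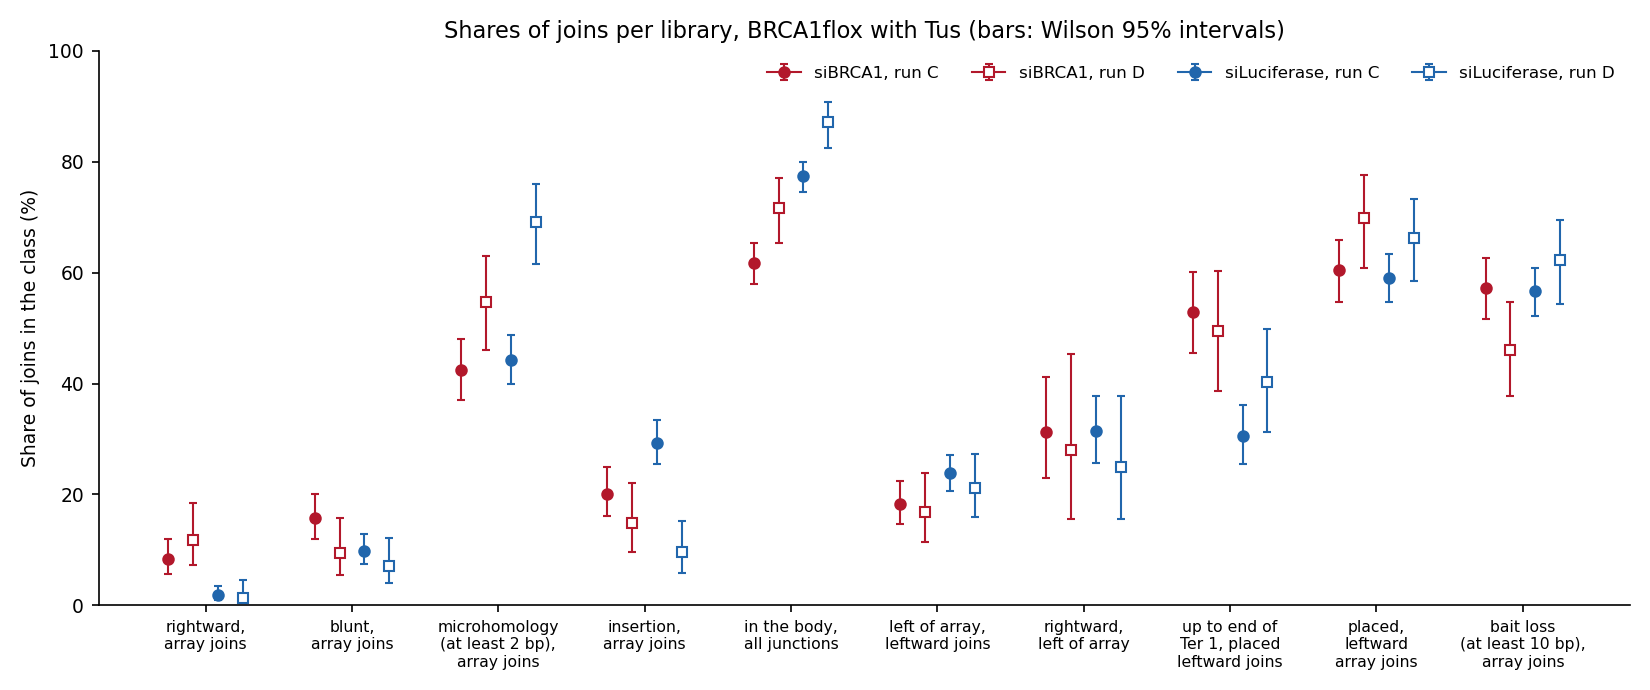
The 10 compared shares (vertical axis, percent of the joins of each class) in each library of BRCA1flox cells with Tus. Red marks siBRCA1 and blue siLuciferase, filled circles run C and open squares run D, and bars are Wilson 95% intervals; the 2 siBRCA1 libraries lie above both siLuciferase libraries for the rightward share of array joins (8.28% and 11.7% against 1.83% and 1.28%) and below both for the share in the cassette body.

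Rightward joins with siBRCA1 were spread over the array. Of the 41, 3 lay before the first Ter element, 16 from the first to the third Ter element or between them, 15 from the fourth to the sixth, and 2 in the I-SceI site, with 5 between the last Ter element and that site. Ter 2 and the last Ter element held 6 each and Ter 3 held 5. The 11 with siLuciferase included 6 from the first to the third element, 3 from the fourth to the sixth and 1 in the I-SceI site. A read that stayed inside the repeat where it began could belong to either repeat. A position was counted as settled only where the read reached at least 20 bp of unique flank, and 14 of the 41 and 5 of the 11 did. This rule also leaves out reads that crossed from 1 repeat into the other without reaching the flank. Of the settled joins, 13 of 14 with siBRCA1 and 4 of 5 with siLuciferase lay from the fourth element on. Under this rule a rightward read must reach the right flank, which favours that end.

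Leftward joins, the larger class in both groups, were shifted toward the left end of the array with siBRCA1. Among uniquely placed leftward array joins, 92 of 174 in run C (52.9%) and 39 of 79 in run D (49.4%) reached no further than the end of the first Ter element with siBRCA1. With siLuciferase this held for 87 of 285 in run C (30.5%) and 41 of 102 in run D (40.2%). The mean was 51.1% ± 2.48 against 35.4% ± 6.84 (SD, n = 2 runs), both siBRCA1 libraries were higher than both controls, and the common odds ratio was 2.15 (exact 95% interval 1.54 to 3.02, adjusted p = 1.2e-05; exact permutation p = 0.333). Run C carried most of this difference: run D alone gave 9.17 points, which missed the threshold (adjusted p = 0.29, exact test), although the odds ratios of the runs did not differ (2.55 and 1.45, adjusted p = 0.36, exact test of equal odds ratios).

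The median placed leftward join lay 21 bp past the first base of the first Ter element in run C and 23 bp in run D with siBRCA1, and 41 and 29 bp with siLuciferase. The 25th percentile lay at 4 and 7.5 bp with siBRCA1 and at 19 and 16 bp with siLuciferase. Joins before the first Ter element, in the stretch the array repeat begins with, made up 33 of 174 and 13 of 79 placed leftward joins with siBRCA1 (19% and 16.5%), against 23 of 285 and 11 of 102 with siLuciferase (8.07% and 10.8%), a border chosen after the values were seen (adjusted p = 0.002, exact test over runs). With the border at the end of the third Ter element the difference came to 2.51 points, short of the threshold (adjusted p = 0.075, exact test). From the fourth element on lay 8 of 174 placed joins in run C and 7 of 79 in run D with siBRCA1. With siLuciferase 37 of 285 and 7 of 102 lay there. That share was lower with siBRCA1 in run C and higher in run D, and it was not tested. At deposited positions, placed or not, the fourth to sixth elements held 30.6% and 27.4% of leftward array joins with siBRCA1. With siLuciferase they held 39.4% and 33.1%, and this was not tested.

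By feature, over both runs, leftward joins with siBRCA1 numbered 51 before the first Ter element, 97 in Ter 1, 68 in Ter 2, 20 in Ter 3, 54 in Ter 4, 30 in Ter 5 and 19 in Ter 6. With siLuciferase they numbered 36, 102, 118, 63, 83, 77 and 44. As a share of leftward array joins, Ter 1 held 23.6% and 25.7% with siBRCA1 (runs C and D) against 14.7% and 20.1% with siLuciferase, and Ter 3 held 4.51% and 6.19% against 9.13% and 12.3%. Both Ter 1 shares were thus above, and both Ter 3 shares below, those of the controls; no test was made per element. The spacers between elements held 1 to 26 leftward joins per library, and the I-SceI site held none of the 401 and 636 leftward joins, which allows a share of up to 0.748% and 0.472%. These counts use deposited positions. The share of leftward reads placed by the flank rule was 60.4% and 69.9% with siBRCA1 and 59.1% and 66.2% with siLuciferase (odds ratio 1.09, exact 95% interval 0.831 to 1.42). Counting every leftward array join at its deposited position, placed or not, gave 36.5% and 38.1% up to the end of the first element with siBRCA1 and 19.9% and 27.3% with siLuciferase (adjusted p = 7.9e-07, exact test over runs, added after the values were seen).

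**Figure D2:**
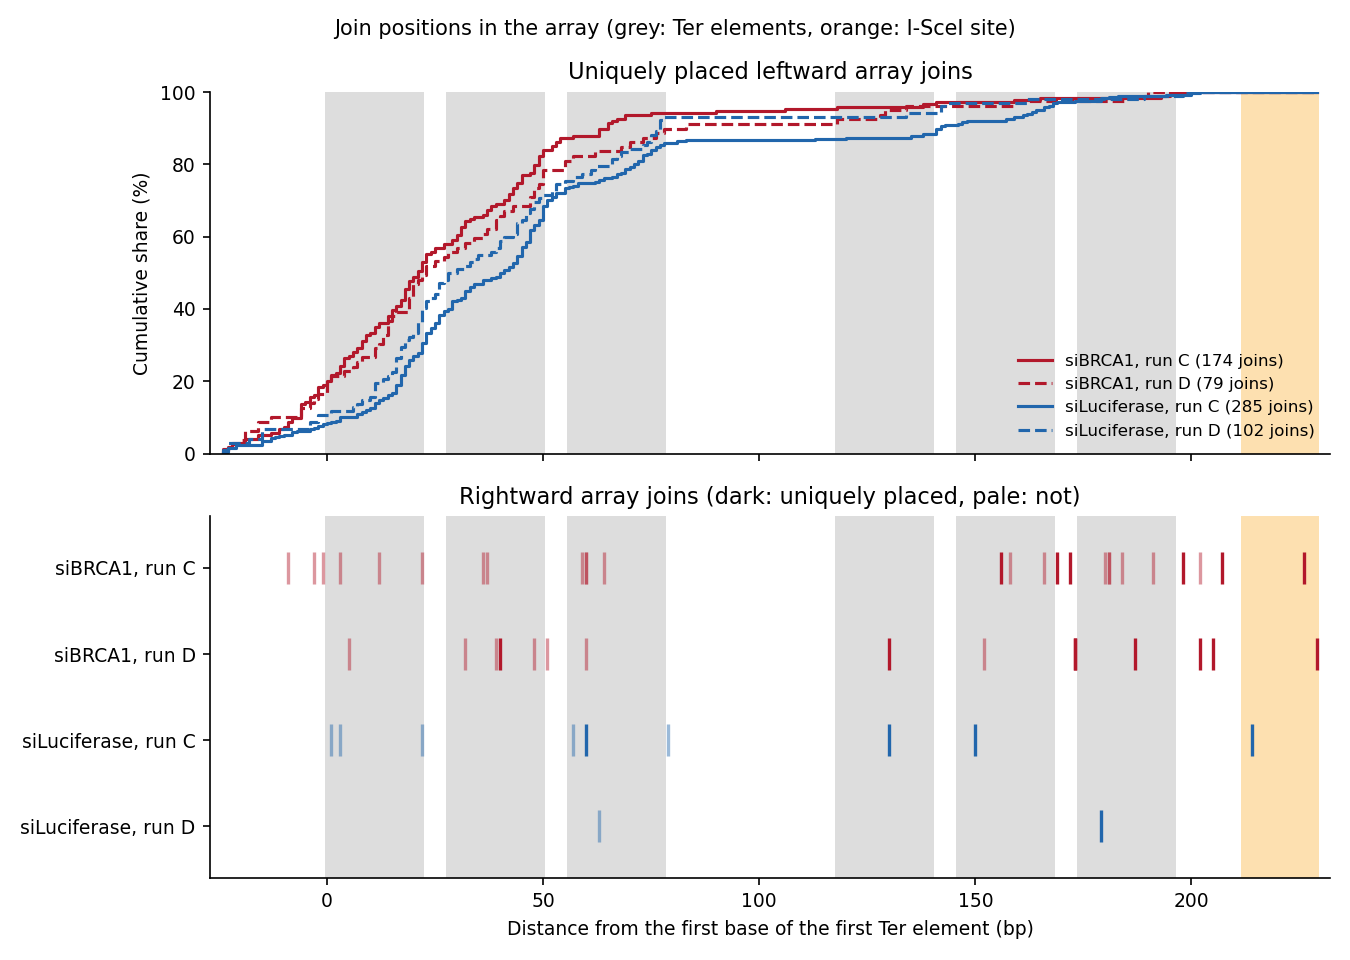
Positions of array joins as distance in bp from the first base of the first Ter element; grey bands are the 6 Ter elements and the orange band the I-SceI site. The upper panel gives the cumulative share of uniquely placed leftward joins per library (siBRCA1 red, siLuciferase blue, run C solid, run D dashed), and the red curves lie above the blue ones over the first Ter element (medians 21 and 23 bp against 41 and 29 bp); the lower panel marks each rightward join, 26 and 15 with siBRCA1 and 9 and 2 with siLuciferase, dark where uniquely placed.

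Further to the left, in the 3023 bp before the array, leftward joins were fewer with siBRCA1 relative to all leftward joins of the body. They made up 66 of 362 in run C (18.2%) and 23 of 137 in run D (16.8%) with siBRCA1, and 153 of 643 (23.8%) and 42 of 199 (21.1%) with siLuciferase. Both siBRCA1 values were lower, but the difference did not pass (odds ratio 0.724, exact 95% interval 0.541 to 0.965, adjusted p = 0.053). The value depended on the border: with the start of the first Ter element as the border the shares were 28.5% and 27.0% against 27.7% and 26.6%, a difference of 0.572 points in the other direction (adjusted p = 0.89, exact test). The joins between the 2 borders are those of the stretch before the first Ter element, more frequent with siBRCA1. Most of the joins outside lay in EGFP next to the array, 65 of 89 with siBRCA1 and 145 of 195 with siLuciferase. Their median distance from the first Ter element was -177 bp with siBRCA1 and -281 bp with siLuciferase in run C, negative values lying to its left, but -209 and -212.5 bp in run D.

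Blunt joins in the array were more frequent with siBRCA1. They made up 49 of 313 array joins in run C (15.7%) and 12 of 128 in run D (9.38%) with siBRCA1, and 48 of 488 (9.84%) and 11 of 156 (7.05%) with siLuciferase. Within each run siBRCA1 was higher, but the siBRCA1 library of run D lay below the siLuciferase library of run C, so the groups overlapped (12.5% ± 4.44 against 8.44% ± 1.97, SD, n = 2 runs). The common odds ratio was 1.63 (exact 95% interval 1.09 to 2.43, adjusted p = 0.033; exact permutation p = 0.667). The call was lost without run C (2.32 points, adjusted p = 0.62) and with repeats of a position and strand within a library dropped (1.55 points, adjusted p = 0.63, exact tests). It was also lost within the span of the Ter elements alone (3.61 points, adjusted p = 0.067) and among joins without an insertion (4.45 points, adjusted p = 0.075, exact tests).

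Microhomology of at least 2 bp was the most frequent structure in every library and did not differ between the siRNAs by the test. It was present in 133 of 313 (42.5%) and 70 of 128 (54.7%) array joins with siBRCA1 and in 216 of 488 (44.3%) and 108 of 156 (69.2%) with siLuciferase (odds ratio 0.807, exact 95% interval 0.625 to 1.04, adjusted p = 0.13). The runs of siLuciferase differed by 25 points (adjusted p = 9.7e-07, Fisher's exact test), more than the siRNAs did within either run, and in run D alone the difference between the siRNAs of -14.5 points passed (adjusted p = 0.027, exact test). The microhomology share depended on how joins with inserted bases were counted. Among joins without an insertion it was 53.2% and 64.2% with siBRCA1 and 62.6% and 76.6% with siLuciferase. It was lower with siBRCA1 in both runs and past the test (adjusted p = 0.006, exact test over runs). The groups still overlapped, and the siLuciferase libraries differed more from each other than the siRNAs did within either run. With insertions counted, a minimum of 1 bp gave -2.1 points and 3 bp gave -5.43, and neither passed (adjusted p = 0.91 and 0.44, exact test over runs).

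Insertions differed more between the libraries of siLuciferase than between siRNAs. They were found in 63 of 313 (20.1%) and 19 of 128 (14.8%) array joins with siBRCA1 and in 143 of 488 (29.3%) and 15 of 156 (9.62%) with siLuciferase. The siLuciferase libraries differed by 19.7 points (adjusted p = 1.9e-06, Fisher's exact test). siBRCA1 was lower in run C (adjusted p = 0.0094, exact test) and higher in run D (adjusted p = 0.27), and the common odds ratio of 0.725 did not pass (exact 95% interval 0.528 to 0.991, adjusted p = 0.069). The median insertion was 3 bp long in both groups. Insertions of 5 bp or more numbered 27 and 7 with siBRCA1 and 64 and 4 with siLuciferase. The read mismatch rate also differed between runs, and its part in these differences was not tested.

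**Figure D3:**
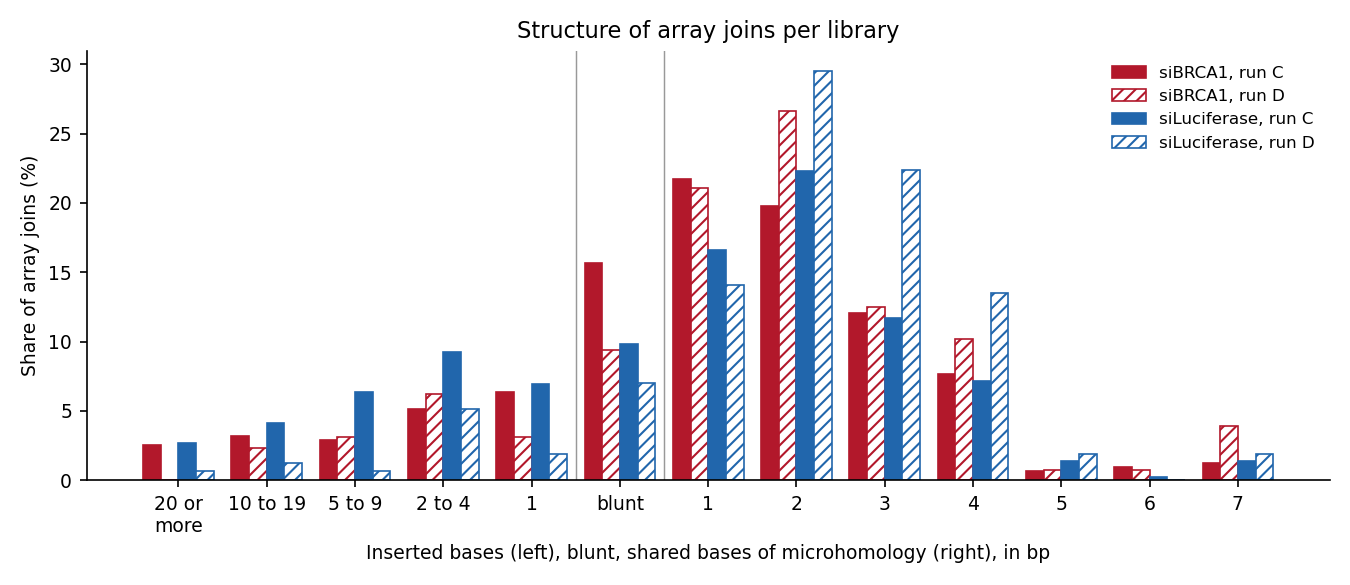
Share of array joins (vertical axis, percent) by structure in each library, with the number of inserted bases to the left, blunt joins in the middle and the length of microhomology in bp to the right; red is siBRCA1, blue siLuciferase, filled bars run C and hatched bars run D. Blunt joins reach 15.7% and 9.38% with siBRCA1 and 9.84% and 7.05% with siLuciferase, joins with 1 shared base 21.7% and 21.1% against 16.6% and 14.1%, and the run D siLuciferase library has the highest bars at 2, 3 and 4 bp.

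A single shared base was found in 21.7% and 21.1% of array joins with siBRCA1 and in 16.6% and 14.1% with siLuciferase, values that were not tested. Longer microhomologies, of at least 4 bp, were carried by 10.5% and 15.6% of array joins with siBRCA1 and 10.2% and 17.3% with siLuciferase, and the longest was 7 bp in both groups. The difference at that minimum did not pass (adjusted p = 0.92, exact test over runs).

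Microhomologies of at least 4 bp took 18 different strings in each group, and 7 strings, those among the 5 most frequent of either group, made up 38 of 53 such joins with siBRCA1 and 55 of 77 with siLuciferase. ACTT, shown above, was the most frequent in both groups, with 14 joins with siBRCA1 and 24 with siLuciferase. It made up 2.24% and 5.47% of array joins with siBRCA1 and 2.66% and 7.05% with siLuciferase, so run D was higher in both groups and the siRNAs overlapped. All 38 of these joins were leftward, lay in a Ter element and had lost 3 bases of bait, and 23 began at the last base of an element. TTTAGTT, the longest of the named stretches, was found in 7 joins with siBRCA1 and 8 with siLuciferase, all leftward, in Ter elements and with a bait loss of 32 bp. AGTT occurred in 6 and 10 joins, all leftward and in Ter elements, and ACAT and TTAGT in 2 and 5 joins each. TCGA was carried by 4 joins with siBRCA1 and 2 with siLuciferase, none of them in a Ter element, with a bait loss of 22 bp. GTAACT was used by rightward joins, 3 with siBRCA1 and 1 with siLuciferase, each at a Ter element and with 4 bp of bait lost.

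No single join dominated the array. Of the 441 array joins with siBRCA1 whose structure was called, 370 (83.9%) were the only one of their position, strand and bait end, and of 644 with siLuciferase 470 (73.0%) were. Such a share depends on how many joins were sampled, so these percentages do not compare the groups. The most frequent array join made up 0.68% and 0.932% of array joins. Over the whole cassette, 7 joins of the siBRCA1 group had 5 or more reads, up to 9, and all lay in the polyA region. With siLuciferase also 7 joins had 5 or more reads, up to 11; 5 lay in the polyA region, and the other 2 were the ACTT joins at the last base of Ter 1 (3070) and of Ter 4 (3188), equivalent places of the 2 repeats. The join at 3070 was read in 6 siLuciferase and 2 siBRCA1 junctions, and the join at 3188 in 5 and 3.

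Array joins had often lost bases from the bait end. A loss of at least 10 bp was found in 179 of 313 (57.2%) and 59 of 128 (46.1%) array joins with siBRCA1 and in 276 of 488 (56.6%) and 97 of 156 (62.2%) with siLuciferase. The groups overlapped, run D alone passed (-16.1 points, adjusted p = 0.021, exact test) and run C did not (0.631 points), and over both runs the difference did not pass (odds ratio 0.855, exact 95% interval 0.664 to 1.10, adjusted p = 0.27). At longer losses both siBRCA1 libraries lay below both controls, with the wider gap in run D. A loss of at least 20 bp, an alternative listed with the main minimum, was found in 36.4% and 28.9% with siBRCA1 and 39.1% and 47.4% with siLuciferase (adjusted p = 0.044, exact test over runs). In run C the Wilson 95% intervals overlapped at 20 bp (31.3 to 41.9 and 34.9 to 43.5), so run D carried most of that difference. A loss of at least 50 bp, a minimum chosen after the values were seen, was found in 47 of 313 (15%) and 17 of 128 (13.3%) with siBRCA1 and in 111 of 488 (22.7%) and 51 of 156 (32.7%) with siLuciferase (odds ratio 0.497, adjusted p = 3.3e-05, exact test over runs). Both siBRCA1 libraries were again below both controls. This held among leftward array joins alone, with 16.3% and 15% against 23.0% and 33.1% (adjusted p = 0.00065, exact test over runs). At 50 bp the siLuciferase libraries differed more from each other than the siRNAs did in run C.

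**Figure D4:**
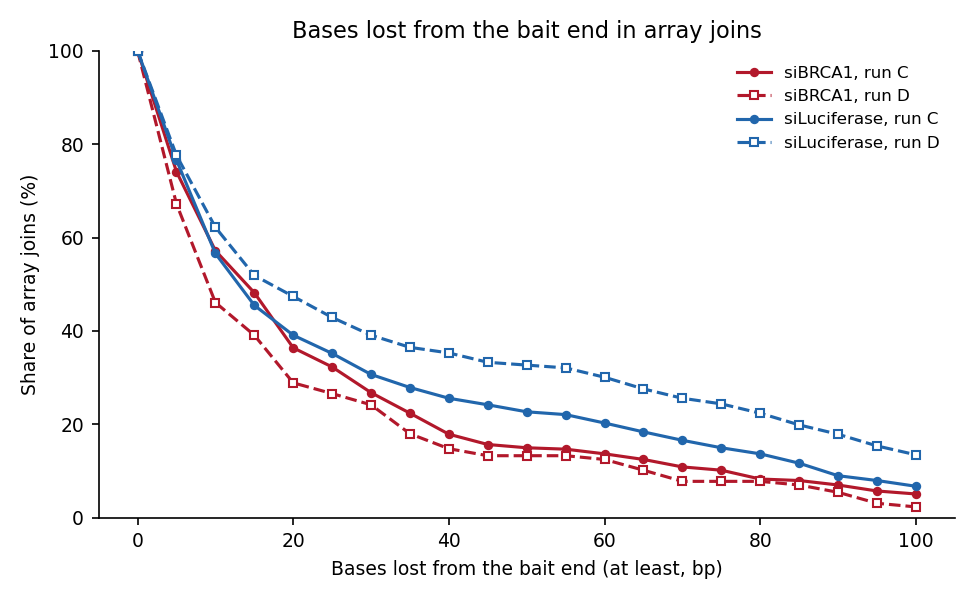
Share of array joins (vertical axis, percent) that had lost at least the number of bait bases on the horizontal axis (bp), per library; red is siBRCA1, blue siLuciferase, solid lines with filled circles run C and dashed lines with open squares run D. At 10 bp the siBRCA1 values of 57.2% and 46.1% overlap with the siLuciferase values of 56.6% and 62.2%, and at 50 bp they are 15% and 13.3% against 22.7% and 32.7%.

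Rightward array joins had kept more of the bait than leftward ones. With siBRCA1, 7 of 40 rightward joins (17.5%) and 231 of 401 leftward joins (57.6%) had lost at least 10 bp, with the lower share among rightward joins in both runs (20% and 13.3% against 60.4% and 50.4%; odds ratio 0.161, exact 95% interval 0.0586 to 0.383, adjusted p = 1.2e-05 over 8 such comparisons chosen after the values were seen). With siLuciferase the counts were 2 of 11 and 371 of 633 (adjusted p = 0.044, exact test over runs). Its run D had 2 rightward joins, neither of which had lost that much, and run D alone did not pass (exact p = 0.14). The median loss of rightward joins was 4 bp with siBRCA1 and 6 bp with siLuciferase, and that of leftward joins 13 bp in both groups. Blunt, microhomology and insertion shares did not differ between the orientations by the same test in either group (adjusted p from 0.2 to 0.73, exact test over runs).

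With siBRCA1, a lower share of the listed junctions fell in the cassette body, and the polyA region held the rest. The body held 419 of 679 junctions in run C (61.7%) and 161 of 225 in run D (71.6%) with siBRCA1, and 722 of 933 (77.4%) and 216 of 248 (87.1%) with siLuciferase. Within runs C and D the differences were -15.7 and -15.5 points, and both siBRCA1 libraries lay below both controls (66.6% ± 6.96 against 82.2% ± 6.87, SD, n = 2 runs). The common odds ratio was 0.452 (exact 95% interval 0.369 to 0.553, adjusted p = 2.3e-14; exact permutation p = 0.333). Run C minus run D was -9.85 points with siBRCA1 and -9.71 points with siLuciferase (adjusted p = 0.04 and 0.0037, Fisher's exact test). Array joins alone made up 46.2% and 56.9% of junctions with siBRCA1 and 52.6% and 62.9% with siLuciferase.

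The polyA region held nearly all of the joins of the EV group. In those BRCA1del cells with siFANCM, 463 of 468 junctions lay there and 1 in the array. In the BRCA1flox groups it held 170 leftward and 154 rightward joins with siBRCA1 and 150 and 93 with siLuciferase, so that neither orientation was rare. Insertions made up 55.7% of polyA joins with siBRCA1 and 57.3% with siLuciferase, and microhomology of at least 2 bp 15.5% and 18.3%, in the pooled runs. A body share is a share of listed junctions only, so fewer body joins and more polyA joins cannot be told apart.

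The same siRNAs were compared in BRCA1del/exon11 cells with Tus, in the same runs C and D and with other libraries. Of their 1323 junctions with siBRCA1, 584 in run C and 194 in run D were used. Of the 1425 with siLuciferase, 570 and 253 were used, and junctions of other runs were left out. There, rightward array joins made up 49 of 269 (18.2%) and 18 of 103 (17.5%) with siBRCA1 and 21 of 270 (7.78%) and 22 of 160 (13.8%) with siLuciferase (odds ratio 2.03, exact 95% interval 1.32 to 3.15, adjusted p = 0.0087). The odds ratio in BRCA1flox was 2.87 times as large, and the difference of the odds ratios passed (adjusted p = 0.048, exact test of equal odds ratios), while in percentage points the differences were 8.44 in BRCA1flox and 7.08 in BRCA1del. The body share was 54.3% and 66.0% with siBRCA1 and 59.6% and 71.1% with siLuciferase in BRCA1del, an odds ratio of 0.799 that did not pass (adjusted p = 0.15, exact test over runs). The odds ratio for the body in BRCA1flox was 0.566 times that value, and this difference passed (adjusted p = 0.00078, exact test of equal odds ratios).

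For the share of placed leftward joins up to the end of the first Ter element, BRCA1del gave 53.1% and 54.4% with siBRCA1 and 46.6% and 53.3% with siLuciferase. The odds ratio was 1.20 there and 2.15 in BRCA1flox, but the test of their difference missed the threshold (adjusted p = 0.066, exact test of equal odds ratios). Blunt joins had odds ratios of 1.25 in BRCA1del and 1.63 in BRCA1flox, with no call for the difference (adjusted p = 0.48, exact test of equal odds ratios). For the other 6 shares the difference between the genotypes did not pass either (adjusted p from 0.32 to 1, the same exact test).

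**Figure D5:**
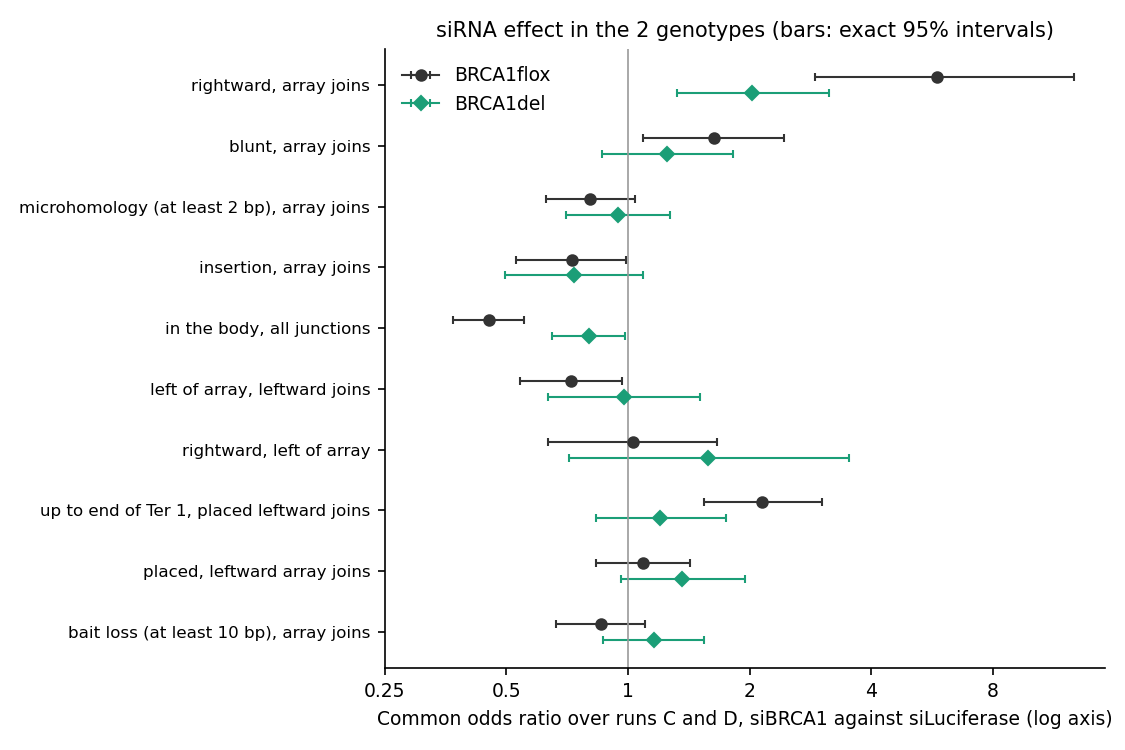
Common odds ratios over runs C and D for siBRCA1 against siLuciferase (horizontal log axis) for the 10 shares, in BRCA1flox (black circles) and BRCA1del (green diamonds), with exact 95% intervals; the line marks an odds ratio of 1. The rightward share of array joins has 5.82 in BRCA1flox and 2.03 in BRCA1del, and the body share 0.452 and 0.799.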

How the data were processed

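The deposited junction tables, for which the submitters' processing notes name Bowtie2 and mm9, give for each read its name, junction position, strand, far end and read sequence; in these columns of other kinds the authors listed integer cassette positions, text and no counts. Whether duplicate reads were removed upstream is not given in the sources used here; no read sequence occurred more than 1 time within a library. Each group's junctions were divided by the sequencing run in the read name. The cassette and the bait end were rebuilt from the reads themselves, the bait end only from reads with the highest prey positions. Join structure was called by exact matching of bait and cassette, with at least 10 bait and 12 cassette bases as seeds. In all, 11816 of 11867 reads were called. An array read was placed where it reached at least 20 bp of unique flank. A leftward read is placed by reaching the left flank, which favours positions near it. Reads that crossed from 1 repeat into the other without reaching the flank were not placed, although the crossing would settle their repeat.

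Shares were compared within runs by a two-sided exact conditional test of a common odds ratio, adjusted by Benjamini-Hochberg over the 10 shares (threshold 0.05), with SciPy 1.17.1, pandas 2.3.3, NumPy 2.4.6 and Python 3.11.15; figures used Matplotlib 3.10.9. An adjusted p for an alternative replaces that share in the same family of 10. Runs of a group were compared by Fisher's exact test over 20 tests, and genotypes by an exact test of equal odds ratios over 10. Library intervals are Wilson 95% intervals. Intervals and limits cover counting error only, and a count of 0 was taken to allow 3 counts. The test of a common odds ratio was checked on simulated independent joins. Their control shares were well above the rightward share of array joins with siLuciferase, so the check covers neither shares that low nor dependent reads. Microhomology strings of at least 4 bp were named where among the 5 most frequent of a group. Members, shares and features were chosen with earlier results of these data known. The alternatives were pooling runs, leaving out each run, counting repeated joins once and moving each border or minimum; those named as chosen or added after the values were seen came later. RNA levels and the mouse genome around the bait were not analysed here.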

Additional observations from a re-analysis of the deposited data

Results flagged for a closer look

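In both cases the effect of siBRCA1 against siLuciferase differed between the genotypes by the exact test of equal odds ratios. For the rightward share of array joins, the odds ratio in BRCA1flox was 2.87 times that in BRCA1del (5.82 against 2.03, adjusted p = 0.048, exact test). On the percentage-point scale the differences were 8.44 and 7.08, and the siLuciferase libraries of BRCA1del already had 7.78% and 13.8% rightward joins, against 1.83% and 1.28% in BRCA1flox. For the share of junctions in the cassette body, the odds ratio in BRCA1flox was 0.566 times that in BRCA1del (0.452 against 0.799, adjusted p = 0.00078, exact test), with differences of -15.6 and -5.27 percentage points.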

How the results depend on the processing

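No paired analysis was possible because the tables carry no replicate numbers by which samples could be matched; sequencing runs were used as strata in every test, which pairs libraries by run. Over 80 alternatives for the 10 shares, 55 changed neither direction nor side of the threshold. Differences below are siBRCA1 minus siLuciferase in percentage points. The rightward share of array joins and the body share passed in each run alone (6.45 to 10.4 and -15.7 to -15.5). The rightward share lost its call over all body joins (4.85). Leaving out 1 run moved blunt joins from 2.32 to 5.82, microhomology from -14.5 to -1.77, insertion from -9.18 to 5.23, rightward joins left of the array from -0.14 to 3.12, proximal leftward joins from 9.17 to 22.3 and bait loss from -16.1 to 0.631. For rightward minus leftward bait loss with siLuciferase the range was -63.0 to -35.0.

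With each position and strand counted once, blunt joins gave 1.55 and lost the call, insertions turned to 0.249, placed reads turned to -0.379, and joins left of the array reached -10.2 and passed. The last also passed with pooled runs (-5.32) and with far end and bait end added to the key (-4.96), and turned to 0.572 with the first Ter element as border. Within the Ter span blunt joins lost the call (3.61) and insertions gained one (-2.92), as insertions did with pooled runs (-5.94). Without insertion joins, microhomology passed (-10.9) and blunt joins did not (4.45). Proximal joins up to the third Ter element gave 2.51 and lost the call. Bait loss passed at 20 bp (-10.6), at 50 bp (-13.6) and at 50 bp among leftward joins (-12.4). The cause of these changes was not tested. Allowing 1 mismatch in the structure calls changed no call (blunt 4.36, microhomology -7.72, insertion -2.57, bait loss -7.62). The 2 rightward array joins of the run D siLuciferase library limit what can be said of rightward joins without BRCA1 siRNA.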

Other observations

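Insertions of 12 bp or more at array joins were compared with the cassette and the bait sequence. An insertion counted as a match where any 12 of its bases in a row occurred there, so the rest of it need not match. With siBRCA1 there were 15 in run C and 3 in run D, and with siLuciferase 21 and 2. In run C with siBRCA1, 1 matched the cassette in the same strand, 4 the cassette on the other strand and 1 the bait on the other strand, and 9 matched neither. In run C with siLuciferase, 3 matched the cassette on the other strand, 1 the bait on the other strand and 17 neither. In run D, 1 of the siBRCA1 insertions matched the cassette and 1 the bait, both on the other strand, and the other siBRCA1 insertion and both siLuciferase insertions matched neither. The longest insertion, 140 bp, was at a leftward array join of siBRCA1 in run C.

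Joins left of the array had microhomology of at least 2 bp in 57.3% and 62.5% with siBRCA1 and in 55.3% and 57.1% with siLuciferase (runs C and D), values that were not tested. Joins in the polyA region had kept the whole bait end in 26.2% and 20.6% with siBRCA1 and 27.8% and 18.8% with siLuciferase. Among array joins the shares were 7.67% and 5.47% with siBRCA1 and 4.30% and 3.85% with siLuciferase. The bait end was set from reads with the highest prey positions only, so the comparison of these regions is not independent of that choice.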
